A study of Mus musculus with 2 samples.

Results

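The cells described here are CD8 T cells that held transcripts of Xcl1, Crtam or Nr4a3, counted as a sum over these genes, and carried neither Tcf7 nor granzymes C to F. They were picked by limits on unique molecular identifiers (UMIs, each of which stands for 1 captured RNA molecule) in single cells. A cell needed at least 3 UMIs over Cd3e, Cd3d, Cd3g and Trac, at least 2 over Cd8a and Cd8b1, and at least 3 over Xcl1, Crtam and Nr4a3. It also needed 0 UMIs of Cd4, of Klra1, Klra6 and Klra7, of Tcf7 and of Gzmc, Gzmd, Gzme and Gzmf, under 20 over C1qa, C1qb and C1qc, and under 2 over Mki67 and Top2a. The rule picked 120 of 18112 cells, 82 from the knockout library and 38 from the control library. They are called Xcl1/Crtam/Nr4a3 cells below. The 488 knockout and 351 control cells that passed every other limit but held fewer than 3 UMIs over those genes are called gate-low cells.

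The mouse melanoma line B16-F10 was injected under the skin, and the tumours were taken after 14 days. The tumour cells carried an FDPS knockout in one group and were labelled wild type (WT) in the other, the control; FDPS, farnesyl diphosphate synthase, makes the isoprenoid precursor of sterols and prenylated proteins. Viable CD45-positive cells, that is host leukocytes, were sorted from 3 tumours per group, and each group gave 1 droplet library with no map from cells to tumours. No treatment other than the tumour genotype is labelled, and the age and strain of the mice and whether the knockout line is 1 clone are not given in the sources used here. With 1 library per group there was no replicate and no test. Every interval below covers counting error only, and every difference is between these libraries.

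A CD8 T cell that meets its antigen switches on immediate early transcription factors, among them those of the Nr4a and Egr families, before it secretes cytokines and chemokines. Xcl1 (lymphotactin) is a chemokine whose receptor, Xcr1, marks the dendritic cells that cross-present antigen. Crtam is an adhesion receptor of activated T and NK cells that binds Cadm1, and Nr4a3 is an orphan nuclear receptor whose transcription follows signalling through the T cell receptor.

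The genes of the Nr4a family are shown first by sequence, because Nr4a3 is a gate gene and its paralogs Nr4a1 and Nr4a2, which the gate did not use, are among the genes described below. The stretches lie before the RefSeq start of each gene, on GRCm38.p6, and stop before any exon of the gene in GENCODE vM21. Capitals mark the half-site of the cAMP response element (TGACG, on either strand). The Nr4a3 stretch is chr4:48045055-48045152 on the plus strand, Nr4a1 is chr15:101266596-101266845 on the plus strand, Nr4a2 is chr2:57124004-57124253 on the minus strand and Xcl1 is chr1:164935528-164935772 on the minus strand.
Nr4a3: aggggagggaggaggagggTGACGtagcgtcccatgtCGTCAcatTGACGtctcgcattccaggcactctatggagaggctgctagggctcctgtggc
Nr4a1: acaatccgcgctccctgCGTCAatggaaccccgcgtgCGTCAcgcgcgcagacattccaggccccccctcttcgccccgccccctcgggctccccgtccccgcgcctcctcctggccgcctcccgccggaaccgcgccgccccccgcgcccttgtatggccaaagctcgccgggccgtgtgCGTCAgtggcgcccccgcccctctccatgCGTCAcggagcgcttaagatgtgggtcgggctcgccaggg
Nr4a2: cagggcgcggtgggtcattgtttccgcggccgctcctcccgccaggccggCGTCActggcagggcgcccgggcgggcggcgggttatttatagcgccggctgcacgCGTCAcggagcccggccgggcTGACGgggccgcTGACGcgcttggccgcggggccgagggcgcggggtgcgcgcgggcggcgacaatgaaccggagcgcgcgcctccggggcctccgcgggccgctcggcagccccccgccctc
Xcl1: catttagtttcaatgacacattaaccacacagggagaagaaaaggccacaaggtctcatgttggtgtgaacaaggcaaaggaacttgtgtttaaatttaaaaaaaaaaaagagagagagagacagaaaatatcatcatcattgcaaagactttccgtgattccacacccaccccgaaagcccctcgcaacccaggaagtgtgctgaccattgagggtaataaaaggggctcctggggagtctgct
In the 250 bases before the start, Nr4a3, Nr4a1 and Nr4a2 each held 4 half-sites, and Xcl1 held 0. For Nr4a3, 3 of the 4 lie in the stretch shown. At least 4 half-sites were found in 0.138% of 32536 windows of that length, and at least 1 in 17.9%. The half-site was searched after the Nr4a3 and Nr4a1 windows had been read. The other motifs searched on both strands were the NBRE (AAAGGTCA), the full cAMP response element (TGACGTCA, which holds a half-site on each strand), the AP-1 site (TGANTCA), the EGR site (GCGTGGGCG) and the CArG box. Over all windows they were found in 1.35%, 1.56%, 6.73%, 0.541% and 1.48%. Of 13 windows found for the gate genes and the activation-induced transcription factors, AP-1 was in 1, that of Prdm1, and the other 4 motifs were in 0. A match describes the letters and is not evidence of a bound factor.

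The rule itself asked for UMIs of Cd8a or Cd8b1 and of Cd3 or Trac genes and for 0 of Cd4, so those genes do not check the label. Of the 9 CD8 T cell genes listed, 3 lie outside the rule, and all were present. Trbc2, a constant segment of the T cell receptor, was found in 80 of 82 knockout and 38 of 38 control cells, at 1116 and 1305 CPM (the UMIs of a gene relative to a common total of UMIs summed over the cells). Cd247, the zeta chain of the receptor complex, was found in 74 and 37 cells, and Lck, its proximal kinase, in 77 and 36. These 3 genes belong to the T cell receptor and its signalling, so the CD8 part of the label rests on the rule. The word stimulated in the working name of these cells rests on the gate genes, and no measure of antigen contact was made. Median depth was 14598 UMIs per knockout cell (range 2563 to 50792) and 15058.5 per control cell (4267 to 39074), against 9886.5 and 11729 in gate-low cells. The gate counts UMIs, so deeper cells pass it more easily.

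Other features of the libraries differed together with the groups. Ribosomal protein genes took 16.2% of UMIs in knockout and 23.3% in control Xcl1/Crtam/Nr4a3 cells, and the median mitochondrial share was 1.53% and 2.64%. Of the 6 melanoma genes checked, 5 were above 0 in the knockout cells, summing to 16.4 CPM, and 6 in the control cells, summing to 102 CPM. Per cell that sum ran from 0 to 11 UMIs in knockout and from 0 to 7 in control cells, and Pmel was at 0 in the knockout cells. At least 2 UMIs of genes that define other lineages were held by 6 knockout and 17 control cells, and melanoma genes alone reached that number in 1 and 14 of them. The macrophage list, with 10 of 10 genes above 0 in both libraries, summed to 70.9 and 197 CPM and ran from 0 to 15 and from 0 to 23 UMIs per cell. Conventional dendritic cell genes, 7 of 9 above 0 in knockout and 5 of 9 in control cells, summed to 109 and 83.1 CPM, against 42.6 and 41.5 CPM in gate-low cells. They reached 59 and 20 UMIs in a cell. Xcr1 was at 0 in both, and at least 5 UMIs of Clec9a or Cd209a were held by 3 knockout and 0 control cells. NK cell genes, 6 of 7 and 2 of 7 above 0, summed to 202 and 80.0 CPM against 130 and 53.4 CPM in gate-low cells, with up to 66 and 16 UMIs in a cell. Ncr1 and Klrb1c were at 0 in the control cells alone. The control sum of this list came from Eomes and Gzma, and Gzma is also in the list of cytotoxic granule genes. B cell genes summed to 61.6 and 43.1 CPM, below gate-low cells (148 and 91.7 CPM), with Cd79a at 0 in both. The part of these features in the differences, between libraries or against gate-low cells, was not tested. The libraries shared 30 barcodes, and 0 of the 120 cells carried one of them.

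Fdps stood at 139 CPM (interval 108 to 176) in the 5 knockout cells with melanoma genes. The 154 such control cells gave 359 CPM (348 to 371). In the Xcl1/Crtam/Nr4a3 cells, which are host cells and do not carry the knockout, Fdps stood at 14.8 CPM (8.92 to 23.1) and 40 CPM (26.1 to 58.6). Gate-low cells gave 14.2 and 49.7 CPM, and cells rich in macrophage genes 25.25 and 42.58 CPM. Host cells thus had a gap in the same direction, so Fdps does not check the genotype label here.

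Xcl1/Crtam/Nr4a3 cells were a larger share of the knockout library. They made up 0.943% of its filtered cells (Clopper-Pearson 95% interval 0.751 to 1.17; 82 of 8697) and 0.404% of those of the control library (0.286 to 0.554; 38 of 9415), a ratio of 2.34 (1.57 to 3.53). Within non-dividing CD8 T cells the gap was smaller. There the shares were 8.13% (6.51 to 9.99; 82 of 1009) and 6.52% (4.65 to 8.84; 38 of 583), a ratio of 1.25 with an interval of 0.839 to 1.88 that spans 1. Among the cells without Tcf7 and granzymes C to F alone, the shares were 14.4% and 9.77%, a ratio of 1.47 (0.991 to 2.22).

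The limits on Tcf7 and on granzymes C to F removed different cells from the 2 libraries. Of CD8 T cells with at least 3 gate UMIs, whatever their Tcf7 or granzymes, the knockout library held 186 and the control library 68. Tcf7, a transcription factor of memory-like and progenitor T cells, was found in 104 of the 186 and in 15 of the 68. Granzymes C to F, proteases of strongly activated killer cells, were found in 0 of the 186 and in 15 of the 68. Counted this way, such cells were 18.4% of knockout and 11.7% of control non-dividing CD8 T cells, a ratio of 1.58 (1.19 to 2.12).

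The gate genes chose the cells, so their values are a description. Xcl1 held 0 to 185 UMIs per knockout cell (median 4.5) and 0 to 564 per control cell (median 3.5). It was found in 61 of 82 and 26 of 38 cells, and summed to 1258 CPM (1198 to 1321) and 2243 CPM (2129 to 2361). The higher control sum leaned on 1 cell, which held 38.7% of the control Xcl1 UMIs, against 11.5% for the top knockout cell. Crtam stood at 415 CPM (380 to 451) in 64 knockout cells and 228 CPM (193 to 267) in 23 control cells. Nr4a3 stood at 400 CPM (366 to 436) in 61 and 232 CPM (197 to 272) in 27 cells. The per-cell ranges of the libraries overlapped for all 3 genes.

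**Figure D1:**
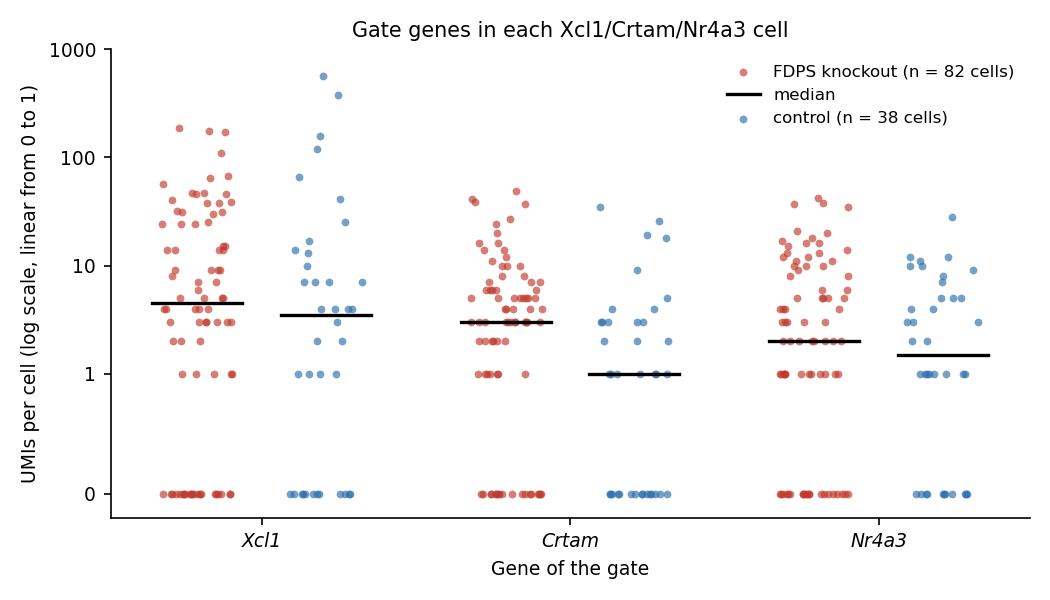
UMIs per cell (vertical, log scale above 1) of Xcl1, Crtam and Nr4a3 in the 82 knockout (red) and 38 control (blue) cells. Each point is 1 cell and black lines are medians. Cells at 0 are present for each gene, and the highest Xcl1 values, up to 564 UMIs, are control cells.

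Gate-low cells held 9.01 and 3.97 CPM of Xcl1, 13.0 and 11.9 of Crtam and 9.39 and 6.53 of Nr4a3 in the knockout and control libraries. Xcl1 was also found at a low level in other cell types. At least 1 UMI of Xcl1 was found in 10.4% of knockout and 3.06% of control cells rich in macrophage genes, with median depths of 14626 and 21940 UMIs, against 8.61% and 4.56% of gate-low cells, so a single UMI of Xcl1 is at background. All 3 gate genes were found together in 36 of the 82 knockout cells (43.9%) and in 12 of the 38 control cells (31.6%). A further 6 cells in each library passed on Nr4a3 alone, and 7 and 4 cells on Xcl1 alone. The summed gate UMIs had a median of 14 in knockout and 5 in control cells, with ranges of 3 to 216 and 3 to 611. Most knockout cells were thus well inside the limit, with 46 of 82 at 10 UMIs or more, against 16 of 38 control cells.

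The partners of Xcl1 and Crtam were looked for in cells without T cell genes. Xcr1 was found in 210 such cells in the knockout library (2.41% of its filtered cells) and in 380 in the control library (4.04%). Cadm1, the Crtam ligand, was found in 496 and 1836 such cells. These counts need only 1 UMI. At least 3 UMIs of Xcr1 were held by 121 and 162 cells, and of Cadm1 by 317 and 1293. The percentages are of all filtered cells, T cells included. At least 3 UMIs of the T cell genes were held by 4409 of 8697 knockout and 2496 of 9415 control cells, so the shares also move with T cell content.

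The gated cells differed from gate-low cells of the same library in a set of activation genes that was shared by both libraries. UMIs were summed over the cells of each kind, and a difference is of log2(CPM + 5). Of 8099 genes compared, which leave out the genes of the rule, 91 (1.12%) were at least 2-fold higher in the gated cells of both libraries and 34 (0.42%) were at least 2-fold lower. At 1.5-fold the counts were 325 (4.01%) and 262 (3.23%). Within the knockout library alone, 2.83% were 2-fold higher and 2.21% lower, and within the control library 2.11% and 2.25%. The median over all genes was -0.04 and -0.02.

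Egr3, a zinc finger factor induced by T cell receptor signals that also restrains activation, had the largest difference shared by both libraries. It stood at 102 against 1.73 CPM in the knockout library, and the control library gave 60.0 against 1.40 CPM, differences of 3.99 and 3.34. The signal came from few cells, 17 of 82 and 6 of 38, and 1 cell held 50 of the 131 knockout and 27 of the 39 control UMIs. Without that cell the differences were 3.34 and 1.87. Egr2, its close relative, was more widespread. Egr2 was found in 34 and 13 cells and stood at 69.4 against 5.94 and at 49.2 against 2.33 CPM, differences of 2.77 and 2.89.

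The other Nr4a genes were higher too. Nr4a1 (Nur77), the common reporter of T cell receptor signalling, stood at 147 against 37.8 CPM in the knockout library, and the control library gave 161 against 20.1 CPM. It was found in 45 and 25 of the gated cells, with 0 to 27 and 0 to 28 UMIs per cell. Its differences were 1.83 and 2.73. Nr4a2 stood at 468 against 205 and at 485 against 192 CPM, differences of 1.17 and 1.32. Between the libraries, Nr4a1 had a knockout to control ratio of 0.907 with a counting interval of 0.711 to 1.16 in the gated cells, a difference of -0.14, but the difference was -1.0 in cells thinned to equal depth.

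As a list, the activation-induced transcription factors were higher in both libraries. Their median difference was 1.20 in knockout and 1.10 in control cells, and 10 of 18 were at least 1.5-fold higher in both, against 4.01% of all genes. The NF-kB subunits Rel (390 against 69.0 and 202 against 65.5 CPM) and Nfkb1 (604 against 257 and 331 against 158 CPM) were among them. Irf8 (444 against 85.9 and 315 against 140 CPM), Irf4 (156 against 41.8 and 69.2 against 20.1 CPM), Myc and Egr1 were also among them. Batf, which works with Irf4 in effector T cells, was not: it stood at 119 against 124 and at 148 against 162 CPM. Prdm1 and Id2, factors of terminal effector cells, were within 1.5-fold in the control library, and Id2 was 0.72 lower in the knockout library.

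Chemokines and cytokines were higher in the gated cells in part. Ccl4 (MIP-1 beta), a chemokine that attracts leukocytes, stood at 9419 CPM in knockout gated cells against 1278 in gate-low cells, and at 3904 against 852 CPM in the control library. It was found in 78 of 82 and 33 of 38 gated cells, with medians of 42.5 and 22 UMIs per cell and highest values of 1460 and 564. Ccl3 (MIP-1 alpha) stood at 1991 against 548 and at 1744 against 562 CPM. Ifng, interferon gamma, stood at 485 against 130 and at 614 against 206 CPM, differences of 1.86 and 1.55. Ccl5, a chemokine stored by resting memory and effector cells, was lower in the gated cells of both libraries, by 0.41 and 0.59 on the log2 scale.

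Of the 15 cytokine, chemokine and TNF-family ligand genes past the level filter, 6 were at least 1.5-fold higher and 1 was lower in both libraries. Over all genes those shares were 4.01% and 3.23%. The list's median was 1.22 (knockout) and 0.10 (control). Tnfsf14 (LIGHT) stood at 63.1 against 3.64 and at 27.7 against 0.933 CPM, and Tnfsf8 (CD30 ligand) at 50.7 against 8.43 and at 33.8 against 4.20 CPM. Tnf, found in 36 and 12 gated cells, had a difference of 1.95 in knockout and 0.39 in control cells, and this gap between libraries was not tested. Il2 was nearly absent: the knockout cells held 1 UMI, and 14 of the 15 control UMIs lay in 1 cell.

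**Figure D2:**
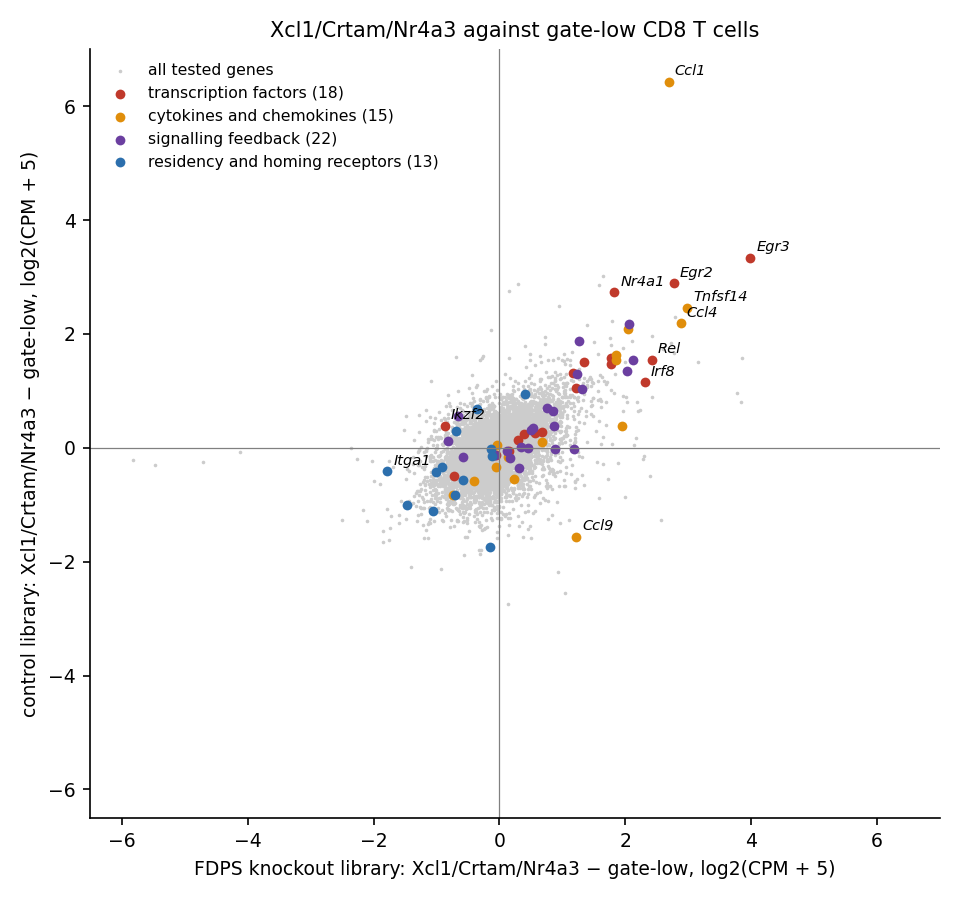
Difference between Xcl1/Crtam/Nr4a3 and gate-low cells in log2(CPM + 5), knockout library (horizontal) against control library (vertical). Each grey point is 1 of 8099 genes and coloured points are genes of 4 lists. Egr3, Egr2, Ccl4 and Tnfsf14 lie to the upper right in both libraries, Ccl1 stands highest in the control library, and Ccl9 has opposite signs.

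Some receptors of activated T cells were higher as well. Tnfrsf9 (4-1BB), a costimulatory receptor induced by antigen, stood at 378 against 89.9 CPM for the knockout and at 631 against 336 CPM for the control. Il2ra (CD25), the high-affinity chain of the IL-2 receptor, stood at 184 against 16.3 and at 112 against 36.4 CPM. Cd160, a receptor for the HVEM ligand, stood at 183 against 58.3 and at 206 against 62.1 CPM, and was found in 58 of 82 and 25 of 38 cells. Tnfrsf4 (OX40) stood at 26.5 against 10.7 and at 225 against 73.9 CPM. Of 14 costimulatory genes past the filter, 4 were at least 1.5-fold higher in both libraries, against 4.01% of all genes, and 0 were lower.

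Inhibitory genes went both ways. Of 15, 2 were at least 1.5-fold higher and 4 lower in both libraries, against 4.01% and 3.23% of all genes, and the median was -0.05 and 0.10. Pdcd1 (PD-1) stood at 314 against 350 and at 457 against 418 CPM, and Tox, a factor of exhausted T cells, at 3475 against 3608 and at 1378 against 1857 CPM. Cd244a (2B4), a receptor of NK cells and exhausted T cells, was lower, at 31.2 against 91.0 and at 16.9 against 88.2 CPM. Differences of Cd244a were -1.41 and -2.09. Entpd1 (CD39), which degrades extracellular ATP, was lower by 0.88 and 0.68 on the log2 scale.

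Feedback inhibitors of receptor signalling were higher in part: 8 of 22 were at least 1.5-fold higher in both libraries, against 4.01% of all genes, and 0 were lower. Dusp4, a phosphatase of MAP kinases, had differences of 2.03 and 1.34, and Nfkbid, an inhibitor of the NF-kB pathway, 2.12 and 1.54. Gadd45b, a stress-response gene, had differences of 2.06 and 2.17, and Rgs16, a regulator of G protein signalling, 1.31 and 1.04. The T cell receptor signalling machinery itself, from Lck to Zap70 and Lat, was near the level of gate-low cells, with medians of -0.11 and -0.15. Of its 21 genes, 0 were higher and 1 was lower in both libraries, against 4.01% and 3.23% of all genes.

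Of 13 genes of tissue residency and homing, 3 were at least 1.5-fold lower and 0 higher in both libraries, against 3.23% and 4.01% of all genes. The list's median was -0.69 (knockout) and -0.41 (control). Ccr2, a chemokine receptor of migrating effector cells, stood at 96.7 against 205 and at 33.8 against 78.9 CPM. Itgb7, an integrin chain of gut homing and epithelial retention, had differences of -1.47 and -1.01. Cxcr6, which marks tumour-resident CD8 cells, stood at 239 against 488 CPM in the knockout library, and the control library gave 402 against 545 CPM.

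Of the other named genes with the largest shared differences, Rgcc (2.79 and 2.29), Tagap (2.43 and 1.96), Pou2f2 (2.11 and 1.88), Slc17a6 (2.73 and 1.84) and Marcksl1 (1.78 and 1.81) were higher, although Slc17a6 had a control difference of 0.44 in thinned cells. Pou2f2 (Oct-2) is a transcription factor of activated lymphocytes, and Tagap is a GTPase-activating protein of activated T cells. Map2, Ctnnd2, Cdkl3, Zfp652, Rbms3, Rexo5 and Tmem140 were lower by at least 2-fold in both, and 1 knockout cell held all 6 Rbms3 UMIs. Zfp652 was best covered, at 63.9 against 225 and at 56.9 against 160 CPM.

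Several activation genes, though not all, were highest in cells with the most gate UMIs. In cells with 0, 1 or 2 gate UMIs, just outside the limit, Egr3 stood at 1.64, 2.45 and 0 CPM in the knockout library, and in cells with 3, 4 to 9 and at least 10 at 36.2, 32.9 and 160 CPM. The control library gave 0.969, 2.94 and 0 outside and 16.9, 34.4 and 96.9 inside. At 10 or more, a single control cell held 27 of the 29 Egr3 UMIs, and a single knockout cell 50 of 111. Nr4a1 stood at 25.8 CPM at 3 UMIs in the knockout library, no higher than in gate-low cells, and at 235 CPM at 10 or more. Ccl4 stood at 3043 CPM in knockout cells with 3 gate UMIs and at 14874 CPM in those with at least 10. In the control library Ccl4 was at 3161, 4241 and 3935 CPM over the same steps, with no rise from 4 to 9 to at least 10. Nr4a2 in the knockout library stayed between 155 and 260 CPM up to 9 gate UMIs and stood at 711 CPM at 10 or more. In the control library Nr4a2 was at 610 CPM at 4 to 9 and 408 CPM at 10 or more, and Egr1 at 120 and 40.1 CPM. Cd244a went the other way, from 99.3 CPM at 0 gate UMIs to 21.6 at 10 or more in the knockout library and from 93.0 to 0 in the control library. The cells with 3 gate UMIs number 12 and 8, those with 4 to 9 number 24 and 14, and those with at least 10 number 46 and 16.

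**Figure D3:**
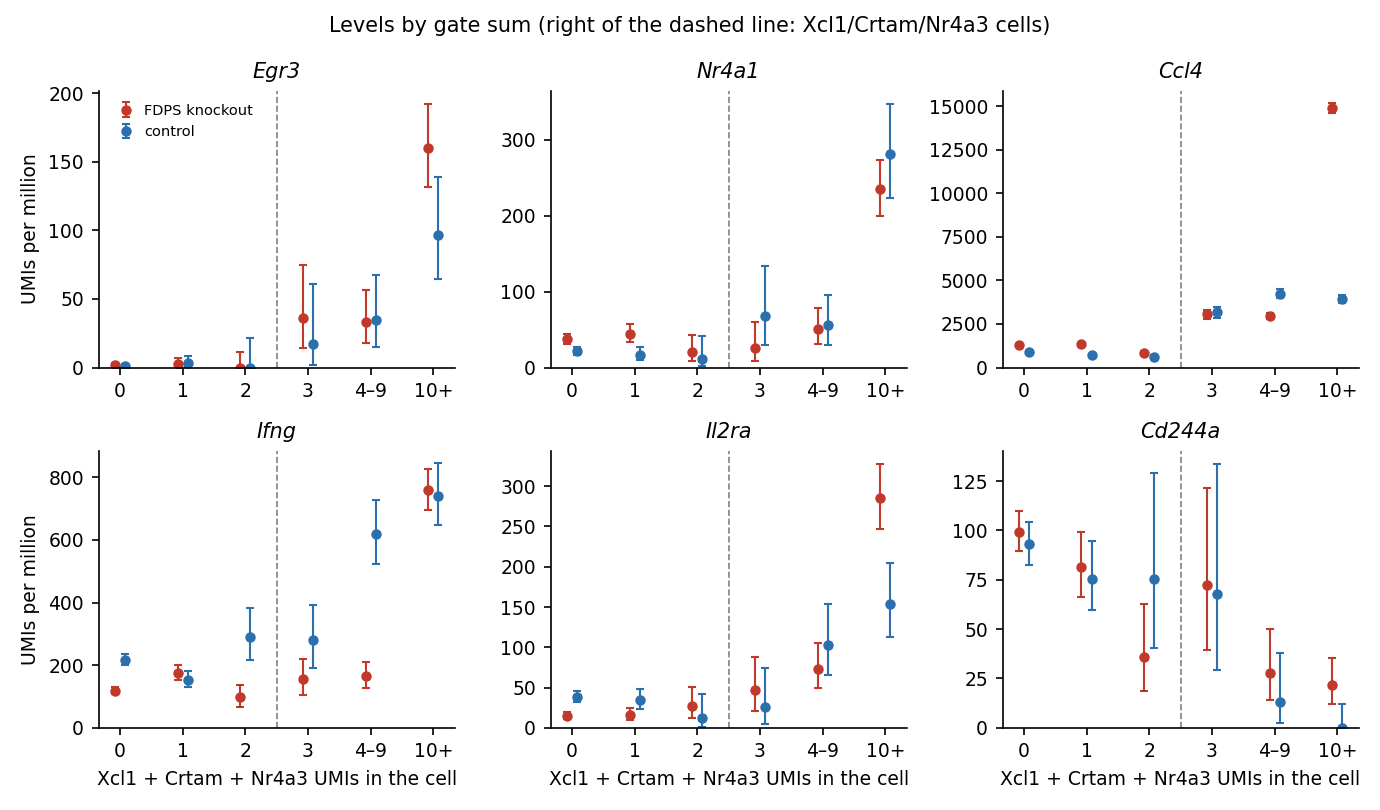
CPM (vertical) of 6 genes in cells grouped by summed UMIs of Xcl1, Crtam and Nr4a3 (horizontal), knockout in red and control in blue. Points are sums over cells and lines are exact 95% Poisson intervals, which cover counting error only. Egr3, Nr4a1, Ifng and Il2ra are highest at 10 or more UMIs in both libraries, where a single control cell held 27 of the 29 control Egr3 UMIs. Ccl4 is highest at 10 or more in the knockout library, and Cd244a is lowest there in both.

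Shares of cells were also taken at equal depth. With every cell of at least 5000 UMIs thinned to 5000 (77 and 37 gated, 413 and 280 gate-low cells, leaving out 5, 1, 75 and 71), Egr3 was found in 14.3% of knockout gated cells against 0.484% of gate-low cells. Unthinned the shares were 20.7% and 1.84%. In the control library the thinned shares were 13.5% and 0.714% and the unthinned 15.8% and 1.14%. Cd160 was found in 51.9% against 20.8% and in 43.2% against 19.3% of thinned cells. Ifng was found in 64.9% against 32.2% of thinned knockout cells, while the control shares, 51.4% (34.4 to 68.1) and 47.9% (41.9 to 53.9), overlapped.

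The gated cells of both libraries were then compared with each other. Of 8004 genes, 380 (4.75%) were at least 2-fold higher and 231 (2.89%) at least 2-fold lower in the knockout cells. At 1.5-fold, 18.8% were higher and 11.1% lower, and the median over all genes was 0.10. In gate-low cells 2.27% and 2.17% were past 2-fold. The gated sums held 1282773 knockout and 650057 control UMIs, against 5216756 and 4286843 in gate-low cells, so their counting error is larger. The part of counting error in these shares was not tested. Gene length moved with the difference between knockout and control gated cells. The median was -0.22 over the 2001 genes with the shortest spans and 0.43 over the 2001 with the longest. The part of gene length in single differences was not tested.

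The activation genes differed little as a list. The transcription factors had a median of 0.03 (-0.13 to 0.49 over the other settings), with 6 of 18 at least 1.5-fold higher and 2 lower in the knockout cells, against 18.8% and 11.1% of all genes. Those higher in the knockout were Irf4 (156 and 69.2 CPM), Nfatc1 (447 and 195 CPM), Rel, Nfkb1, Tbx21 and Egr3. The Egr3 difference of 0.72 turned to -0.56 in thinned cells and to -0.31 with each cell scaled to the same total. Those lower were Bhlhe40 (99.0 and 209 CPM), a regulator of effector cytokines, and Ikzf2.

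Ikzf2 (Helios), a factor of regulatory T cells and of dysfunctional or innate-like CD8 cells, was the lowest of the factors. It stood at 79.5 CPM in 25 of 82 knockout cells and 506 CPM in 31 of 38 control cells, a difference of -2.60 and a ratio of 6.36 (5.08 to 8.03) in favour of the control. In thinned cells its shares were 22.1% (13.4 to 33.0) and 67.6% (50.2 to 82.0). In gate-low cells Ikzf2 stood at 149 and 386 CPM, a difference of -1.34. Within the knockout library the gated cells were thus 0.87 below gate-low cells, and within the control library 0.39 above; this gap was not tested, and the knockout difference turned to 0.20 with no limit on Tcf7. The list of CD4 and regulatory T cell markers summed to 87.3 and 514 CPM and ran from 0 to 20 and from 0 to 54 UMIs per cell. Ikzf2 itself gave 79.5 and 506 of those CPM, so the sum mostly repeats Ikzf2. Foxp3 was at 0 in both, and Cd4 was at 0 by the rule.

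Tnfrsf4 (OX40) was also lower, at 26.5 CPM in 12 knockout cells and 225 CPM in 23 control cells, with a control to knockout ratio of 8.47 (5.80 to 12.7). Gate-low cells showed a like gap, at 10.7 and 73.9 CPM. Tnfrsf18 (GITR), its neighbour in function, stood at 99.0 and 240 CPM, and Tnfrsf9 at 378 and 631 CPM. Il2ra went the other way at 184 and 112 CPM. Of the 14 costimulatory genes past the filter, 4 were at least 1.5-fold higher and 3 lower, with a median of 0.39, against 18.8% and 11.1% of all genes.

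Among secreted products, Ccl4 summed over all gated cells was higher in the knockout, with a ratio of 2.41 (2.31 to 2.52). The excess lay in cells with at least 10 gate UMIs, at 14874 and 3935 CPM. At 3 gate UMIs Ccl4 stood at 3043 and 3161 CPM, and at 4 to 9 at 2940 and 4241 CPM. Ccl5 was at 6585 and 2998 CPM, with a like gap in cells with 0 gate UMIs, at 9217 and 4502 CPM. Ccl3 (1991 and 1744 CPM) and Ifng (485 and 614 CPM) were within 1.5-fold. Ccl1, the ligand of Ccr8, had the lowest difference of all named genes, at 35.9 and 608 CPM, but lay in 4 knockout and 4 control cells. The top cell held 259 of the 395 control UMIs and 27 of the 46 knockout UMIs, and without the top cells the difference moved from -3.91 to -3.43. It was -0.96 without the cells that held at least 2 UMIs of other lineages. All Ccl1 UMIs of both libraries were in cells that also held Xcl1. The list as a whole had 6 of 18 genes higher and 3 lower, against 18.8% and 11.1% of all genes, with a median of 0.49.

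Glycolysis and hypoxia genes were the list with the lowest median. Of 19 genes past the filter, 15 were at least 1.5-fold lower in the knockout cells, against 11.1% of all genes, and 0 were higher. The median was -1.09 in gated and -1.35 in gate-low cells. Tpi1 stood at 175 and 597 CPM, Pgk1 at 194 and 582 CPM, Pkm at 274 and 738 CPM, and Gapdh at 1003 and 2141 CPM, all enzymes of glycolysis. Slc2a3, a glucose transporter, and Hk1 stood at 114 and 115 and at 98.2 and 108 CPM. Against gate-low cells of the same library, these genes had medians of 0.21 and -0.09.

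Cytotoxic granule genes outside the rule had a median of -0.30, with 4 of 13 lower and 1 higher, against 11.1% and 18.8% of all genes, and the median was 0.05 and 0.15 in cells with at least 5 and 10 gate UMIs. Perforin (Prf1) stood at 325 and 748 CPM, and Serpinb9 (101 and 248 CPM) and Serpinb6b (122 and 305 CPM), which protect the killer cell from granzymes, were lower as well. Gzmb stood at 569 and 821 CPM and Nkg7 at 2334 and 2347 CPM. The Prf1 difference was -1.19, and it was -0.56 and -0.40 with at least 5 and 10 gate UMIs. In gate-low cells the median of the list was -0.41.

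Type I interferon-stimulated genes had medians of opposite sign in gated and gate-low cells, a gap that was not tested. In gated cells 10 of 24 were at least 1.5-fold higher in the knockout and 3 were lower, against 18.8% and 11.1% of all genes, with a median of 0.32. In gate-low cells the median was -0.51. The gated median turned to -0.13 when cells with UMIs of other lineages were left out. Ifi208 (59.3 and 13.8 CPM) and Slfn8 (89.7 and 21.5 CPM) were spread over 27 and 8 and over 42 and 12 cells. Others lay in few cells: Rsad2, which blocks viral budding, stood at 43.7 and 16.9 CPM with 26 of 56 knockout UMIs in 1 cell and a difference that turned from 1.15 to -0.56 with no limit on Tcf7, and Isg15 at 105 and 108 CPM with 47 of 135 in 1 cell.

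**Figure D4:**
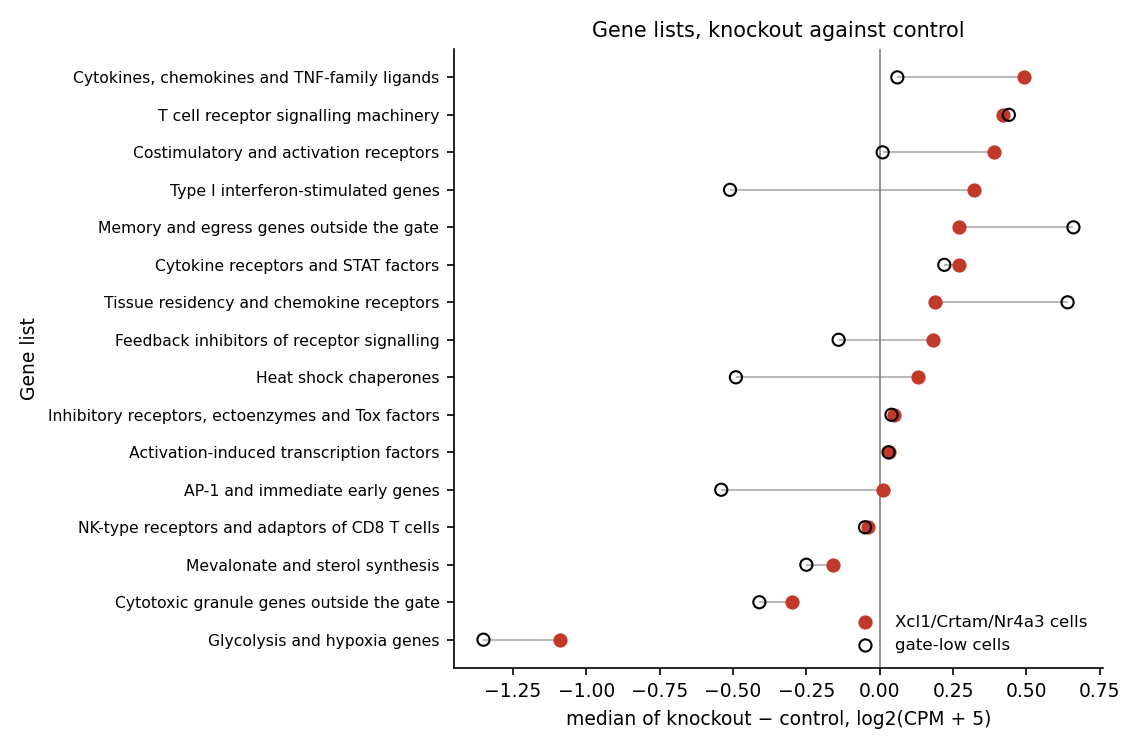
Median difference of knockout minus control in log2(CPM + 5) for 16 gene lists, in Xcl1/Crtam/Nr4a3 cells (red) and gate-low cells (open). Glycolysis and hypoxia genes lie lowest in both, at -1.09 and -1.35, and the interferon-stimulated genes lie on opposite sides of 0.

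Of 21 T cell receptor signalling genes, 8 were at least 1.5-fold higher and 1 lower in the knockout cells, against 18.8% and 11.1% of all genes, with medians of 0.42 in gated and 0.44 in gate-low cells. Fyn, a Src-family kinase, stood at 1260 and 500 CPM. Tox stood at 3475 and 1378 CPM. Foxp1, which keeps T cells quiescent, stood at 583 CPM in 80 of 82 knockout cells and 149 CPM in 32 of 38 control cells, a ratio of 3.91 (3.16 to 4.88). Fyn, Tox and Foxp1 span long stretches of the genome, and in gate-low cells their differences were 1.31, 0.96 and 1.33. Bach2, a repressor that preserves memory potential, was at 460 and 251 CPM, against 276 and 61.6 CPM in gate-low cells, so that both libraries were higher within the gate.

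Among memory and egress genes outside the rule, 4 of 9 were higher and 2 lower in the knockout cells, against 18.8% and 11.1% of all genes. The median was 0.27, and it ran from -0.14 without cells holding other lineages' genes to 1.5 with no limit on Tcf7. Lef1, a partner factor of Tcf7, stood at 58.5 and 29.2 CPM, and Ccr7, the receptor for lymph node homing, at 16.4 and 58.5 CPM in 2 and 6 cells, with 19 of its 21 knockout UMIs in 1 cell.

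The medians of the heat shock, AP-1, mevalonate, inhibitory, feedback, innate receptor and residency lists changed sign with the settings (the lowest and highest were -0.46 and 0.57). NK-type receptors had a median of -0.04, with 1 of 9 higher and 2 lower, feedback inhibitors 0.18, with 3 of 23 higher and 4 lower, and residency genes 0.19, with 3 of 13 higher and 2 lower. Each count in these lists is read against 18.8% of all genes higher and 11.1% lower. Heat shock chaperones had a median of 0.13 in gated and -0.49 in gate-low cells. In gated cells 0 of 11 were lower and 3 higher, among them Hspa1b (293 and 106 CPM) and Hsph1 (237 and 90.8 CPM). AP-1 and immediate early genes had a median of 0.01 in gated and -0.54 in gate-low cells, and Fos stood at 42.1 and 15.4 CPM, with 24 of its 54 knockout UMIs in 1 cell. Mevalonate and sterol genes had a median of -0.16, with 0 of 13 higher and 4 lower. Cytokine receptors and STAT factors had a median of 0.27, with 4 of 18 higher and 1 lower, against 18.8% and 11.1% of all genes. Inhibitory genes had a median of 0.05, with 2 of 15 higher and 3 lower.

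Several of the largest single differences rested on 1 cell or moved with RNA of other cells. Retnla, a gene of alternatively activated macrophages, stood at 56.1 CPM in 44 of 82 knockout cells and was not found in the control cells, at least 12.2-fold higher against a floor of 3 UMIs over the group. In knockout cells rich in macrophage genes it stood at 12333 CPM and in gate-low cells at 309 CPM. With free RNA subtracted it fell below the level filter and gave no value. Dct, a melanoma pigment gene, was found in 3 knockout and 19 control cells, and Spp1, a macrophage and tumour gene, in 2 and 12. Lrmda had 75 of 87 control UMIs in 1 cell, and its difference moved from -2.50 to -0.56 without the top cells.

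Other named genes higher in the knockout cells were Vmn2r96 (99.0 and 10.8 CPM), Rasgef1b (82.6 and 9.23 CPM), Scml4 (98.2 and 23.1 CPM), Mid1 (30.4 and 3.08 CPM), Gas7 and Snupn. Lower ones were Dscam (8.57 and 145 CPM), Dapl1 (1 and 4 cells), Dgkg and Myo10. Vmn2r96, a vomeronasal receptor gene, and Dscam, a neuronal adhesion gene, differed the same way in gate-low cells, by 2.26 and -1.68.

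Within the gate, cells with and without Xcl1 were set side by side; gaps between the libraries were not tested. In control cells the 26 with Xcl1 stood above the 12 without it for Nr4a1 (203 and 62.4 CPM), Cd160 (256 and 88.4 CPM) and Bach2 (323 and 77.9 CPM), and below them for Ikzf2 (328 and 930 CPM) and Gzmb (610 and 1325 CPM). Of the 93 Nr4a1 UMIs in control cells with Xcl1, single cells held 28, 23 and 15. In knockout cells the 61 with Xcl1 and the 21 without were close for Nr4a1 (144 and 153 CPM) and Egr3 (100 and 107 CPM). Cd160 (203 and 130 CPM, ratio 1.56, interval 1.12 to 2.21) and Bach2 (510 and 324 CPM, ratio 1.58, interval 1.28 to 1.96) were higher with Xcl1 in the knockout library as well. Gzmb, at 443 and 910 CPM, was lower with Xcl1 in the knockout library too, as was Prf1 in both. Cells without Xcl1 passed on Crtam and Nr4a3, so these values describe the gate's parts.

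Different T cell receptor beta segments led the libraries. A Trbv UMI was found in 41 knockout and 17 control gated cells, and each cell was given its most frequent segment. Trbv13-1 led the knockout cells with 15 of 41 (36.6%, interval 22.1 to 53.1), over 12 segments in all. Trbv2 led the control cells with 8 of 17 (47.1%, interval 23.0 to 72.2), over 5 segments. Trbv2 was in 1 of the 41 knockout cells and Trbv13-1 in 2 of the 17 control cells. Gate-low cells had the same leaders: Trbv13-1 in 36 of 131 knockout cells (27.5%) and Trbv2 in 102 of 150 control cells (68.0%). The tumour of origin of each cell is unknown, so a segment shared by the tumours and one from 1 tumour cannot be told apart.

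**Figure D5:**
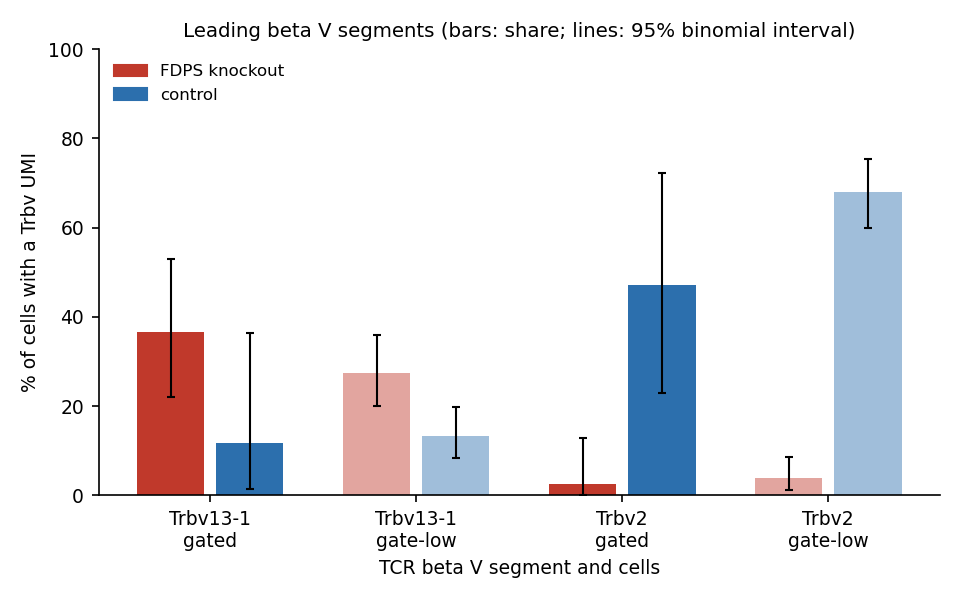
Share of cells with a Trbv UMI (vertical, percent) whose leading segment was Trbv13-1 or Trbv2, in gated (full colour) and gate-low (pale) cells of the knockout (red) and control (blue) libraries. Lines are exact 95% binomial intervals for counting error. Trbv2 leads in both kinds of control cells, at 47.1% and 68.0%.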

How the data were processed

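The deposited values were counts of UMIs per gene and barcode, which per the file headers came from Cell Ranger 7.2.0 and were made on mm10, per the submitters' processing notes. The authors' gene annotation was not used here. The knockout library held 9130 barcodes and 127186298 UMIs and the control library 10882 and 208936136. Barcodes with at least 200 genes and under 10% mitochondrial UMIs were kept (8697 and 9415), and no doublet caller was run beyond the limits of the rule. Counts were summed over cells per library, scaled to CPM and compared as log2(CPM + 5) for genes whose mean over the groups compared reached 10 CPM, leaving out the genes of the rule. No test was made, since each group had 1 library of 3 tumours. Intervals are exact binomial (Clopper-Pearson), exact Poisson or exact conditional, at 95%. Sums were tried on simulated cells and intervals on simulated Poisson counts. No simulated gene was set to have most of its UMIs in 1 cell, so such genes were not covered. Named genes were the 10 highest and 10 lowest between libraries, the 12 highest and 8 lowest against gate-low cells in both libraries, and the 2 highest and lowest of each of 16 lists in each comparison, with a UMI in at least 10% of cells; further list members were named for their role after their values were seen. The cells and lists were chosen with earlier results of these data known. Gene positions came from GENCODE vM21 (32235 of 32285 identifiers found). Alternatives covered the limits of the rule, depth, pseudocount, level filter, scaling, free RNA and doublets. Python 3.11.15, numpy 2.4.6, scipy 1.17.1 and pandas 2.3.3 were used.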

Additional observations from a re-analysis of the deposited data

Results flagged for a closer look

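In Atf3 and Ccl9 the libraries moved in opposite directions between Xcl1/Crtam/Nr4a3 cells and gate-low cells. Atf3, a stress-response transcription factor, had a difference of 1.75 in knockout cells and -1.43 in control cells. Ccl9, a chemokine of myeloid cells, had 1.22 and -1.56. The difference between the libraries was not tested. In the knockout library 1 cell held 44 of the 55 Atf3 UMIs, and another held 44 of the 64 Ccl9 UMIs. Without these cells the knockout differences were -0.07 and -0.20. The cell with the Atf3 UMIs also held 49 UMIs of Cd209a, 121 of H2-Aa and 241 of Cd74, which are dendritic cell and antigen presentation genes, beside 2 of Cd8a. The cell with the Ccl9 UMIs held 30 UMIs of Cd8a and 0 of Cd209a, H2-Aa and Cd74.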

How the results depend on the processing

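No paired analysis was possible because each group had 1 library. The ratio of shares, 2.34 as reported, was 3.80 with no limit on Tcf7, 3.92 without cells holding other lineages' genes and 1.25 as a share of non-dividing CD8 T cells. Genes 2-fold higher in knockout cells, 380 as reported, numbered 689 with at least 5 gate UMIs, 844 with at least 10 (chosen after seeing the data), 812 in thinned cells, 578 and 113 with pseudocounts 1 and 20, and 154 above 50 CPM. Lower ones, 231 as reported, numbered 487 with no limit on Tcf7, 473 with at least 10 gate UMIs, 630 in thinned cells, 361 and 56 with pseudocounts 1 and 20, 375 with no level filter and 52 above 50 CPM. Genes higher than in gate-low cells of both libraries, 91 as reported, numbered 49, 150 and 200 with at least 2, 5 and 10 gate UMIs, 56 with no limit on Tcf7, 38 with pseudocount 20 and 43 above 50 CPM. Lower ones, 34 as reported, numbered 13, 112 and 208 with at least 2, 5 and 10 gate UMIs, 57 with a limit per 10000 UMIs, 22 and 16 with no limit on granzymes or Tcf7, 95 in thinned cells, 63 and 6 with pseudocounts 1 and 20, and 12 above 50 CPM. Lrmda turned to 0.47 with at least 5 gate UMIs. Of 1726 alternative values of single genes and lists, 1606 stayed within the spread used, 119 moved and 1 reversed. That spread was the counting interval for a gene and 1.5-fold for a list. Only values reported at 2-fold or more for a gene, or 1.5-fold for a list, could count as reversed. List medians below that size changed sign without being counted. The level filter leaves the value of a single gene unchanged, so these counts do not measure stability. Ikzf2 ranged from -2.92 to -1.11, Foxp1 from 1.53 to 2.19, and the glycolysis list from -1.36 to -0.82. With 38 control cells, genes of few UMIs had wide counting intervals. The cause of these shifts was not tested.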
